A study of Mus musculus with 38 samples.

Results

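The F1 males studied here were sons of B6-ChrXTMSM females and B6-Chr1MSM males, and their testes at 5 days postpartum (dpp) were compared with B6 testes of the same age on 3 arrays of each group, 6 of the 38 arrays of the series. B6 is the C57BL/6J laboratory strain, and MSM is an inbred strain derived from Japanese wild mice, Mus musculus molossinus. The F1 males therefore carried the MSM version of the distal part of their single X chromosome and 1 MSM copy of chromosome 1 beside 1 B6 copy, with B6 chromosomes elsewhere. B6 males carried no MSM segment. 4 other groups served as reference points: B6-ChrXTMSM males (3 arrays), which had the same distal X segment and B6 copies of chromosome 1, and MSM males (3 arrays), both at 5 dpp, and F1 males (8 arrays) and B6 males (3 arrays) at 7 dpp. Each array held the RNA of the whole testes of 1 male. The 8 F1 arrays of 7 dpp were kept as 1 group. The study found their expression profiles variable and sorted these males into restored and non-restored types. The labels do not tell these types apart. Levels of some genes are also given for B6-ChrXMSM, whose whole X chromosome is of MSM origin, and for XS39-tel, a further strain of the series, both at 5 dpp. The labels do not give the genotype of XS39-tel. The study describes a congenic strain at 5 dpp with MSM sequence only in a more distal part of the X chromosome. It does not use the name XS39-tel for that strain in its text.

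At this age the seminiferous cords are made up mostly of Sertoli cells, the somatic cells that nurse the germ line, and of spermatogonia, the mitotic germ cells. Retinoic acid drives spermatogonia to differentiate and to switch on Stra8, the gatekeeper of meiosis, and transcripts of later meiotic genes begin to accumulate in spermatogonia before spermatocytes are seen. The X chromosome carries many genes used in spermatogonia, and males have 1 copy of it, so an X-linked gene of the MSM segment is read from the MSM allele alone. On chromosome 1, by contrast, an F1 male reads both alleles. Which transcripts of these testes differ from B6, and whether they lie on the MSM segments or elsewhere, was the question of the comparison.

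Of 16665 probe sets tested, 90 (0.54%) were called, that is, they passed an adjusted p of 0.05 in limma with a fold change of at least 1.5. 25 (0.15%) were higher and 65 (0.39%) lower in F1 than in B6, and the 90 probe sets represented 79 genes. The distal X chromosome had 28 calls among 238 probe sets (11.8%), chromosome 1 had 17 among 758 (2.24%), and the remaining chromosomes with the proximal X chromosome had 45 among 15669 (0.287%). The F1 minus B6 differences had a standard deviation of 0.58 on the distal X chromosome, 0.31 on chromosome 1, 0.20 on the proximal X chromosome and 0.19 on chromosomes 2 to 19 on the log2 scale, about medians between -0.025 and 0.021. The map of differences by gene order shows calls in several parts of both MSM segments. On chromosome 1 the called genes Stk17b, Fam126b, Bmpr2, Nbeal1, Klf7, Obsl1 and Wdfy1 lie in one stretch, and clustering was not tested.

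**Figure D1:**
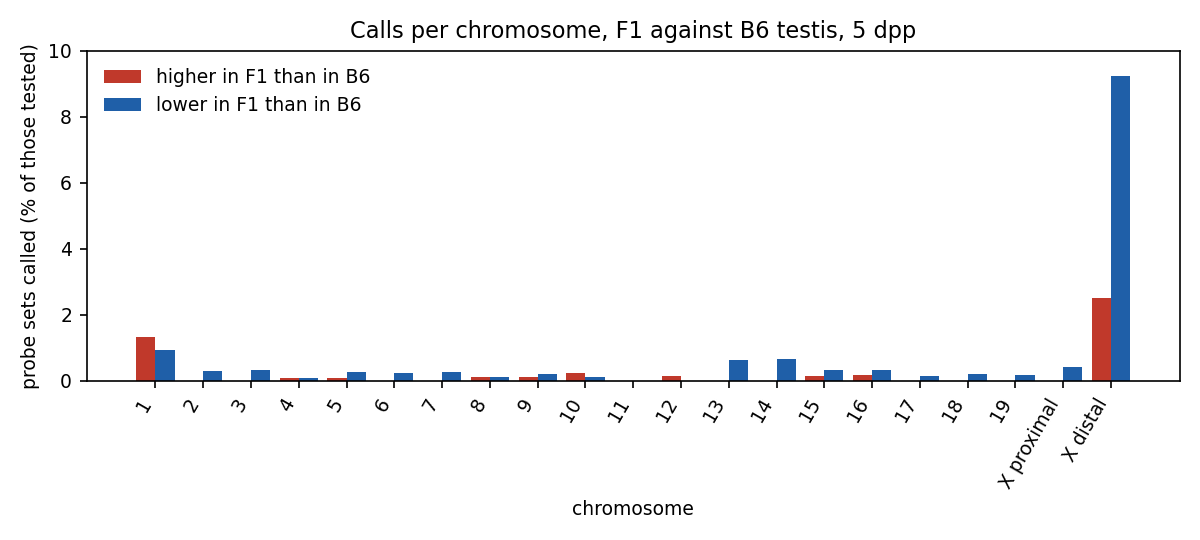
Percentage of tested probe sets called higher (red) and lower (blue) in F1 than in B6 testes at 5 dpp, by chromosome, with the X chromosome split at the start of the MSM segment. The distal X chromosome stands at 2.52% higher and 9.24% lower, chromosome 1 at 1.32% higher and 0.923% lower, and no other chromosome reaches 0.7% in either direction.

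**Figure D2:**
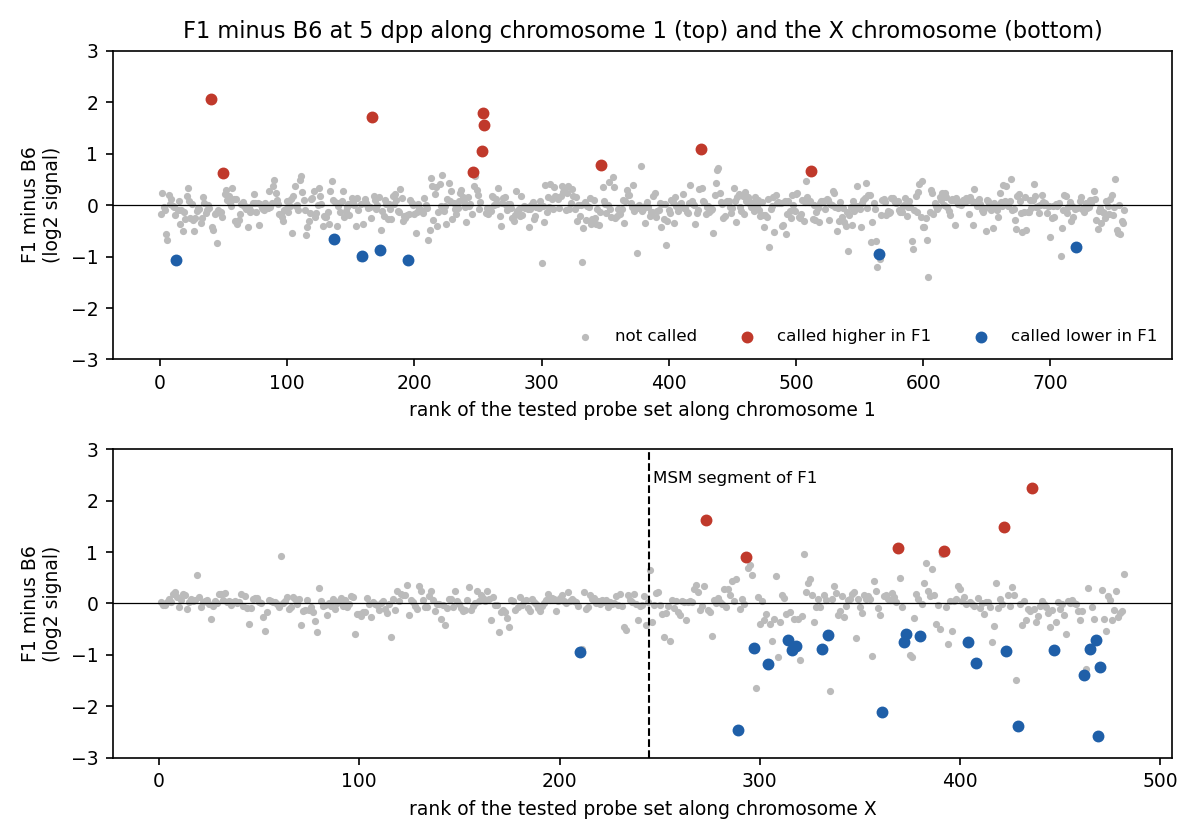
F1 minus B6 difference at 5 dpp (log2 signal, vertical axis) of each tested probe set against its rank along chromosome 1 (top) and the X chromosome (bottom), with calls in red and blue and all other probe sets in grey. The dashed line marks the proximal end of the MSM segment, beyond which 28 of 238 probe sets were called, against 1 of 244 before it.

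The F1 arrays differed more among themselves than the B6 arrays did. Pairs of arrays correlated at 0.979 to 0.989 within F1 and at 0.992 to 0.995 within B6, while pairs of 1 F1 and 1 B6 array correlated at 0.979 to 0.989. The median standard deviation per probe set was 0.109 in F1 and 0.066 in B6 on the log2 scale. With 3 arrays a group the number of calls rested heavily on single arrays: it was 129, 22 and 107 without F1 replicate 1, 2 and 3, and 15, 18 and 29 without B6 replicate 1, 2 and 3. In each of these 6 fits every one of the 90 probe sets that was still tested kept its direction. 10 probe sets were called in all 6: Nhsl2, Gpm6b, Kctd12b and Asb9 (lower) and Phex and Pdzd11 (higher) on the distal X chromosome, Wdfy1 (higher) and Tcf24 (lower) on chromosome 1, and Rai14 (higher) and 4833420G17Rik (lower) elsewhere.

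On the distal X chromosome, 22 probe sets of 19 genes fell and 6 probe sets of 6 genes rose in F1. The largest falls were of Gpm6b, which encodes a proteolipid-like membrane glycoprotein, Nhsl2, a relative of the Nance-Horan syndrome gene, and Kctd12b, a member of the family of potassium channel tetramerisation domain proteins. Nhsl2 gave log2 signals of 2.57, 2.46 and 2.37 in F1 against 4.85, 5.01 and 4.92 in B6 (log2 difference -2.46, SE 0.07, adjusted p = 0.000168). All 3 F1 values lay under 3.32, the log2 of the signal of 10 used as the floor, and all 3 B6 values far above it. The Gpm6b probe set with the largest fall gave 3.84, 3.81 and 3.47 in F1 against 6.30, 6.32 and 6.26 in B6 (log2 difference -2.58, SE 0.10, adjusted p = 0.000579), and the other 2 tested probe sets of the gene fell as well, by 1.24 and 0.71. Kctd12b gave 2.17, 1.86 and 1.58 in F1 against 4.31, 4.18 and 4.27 in B6 (log2 difference -2.39, SE 0.14, adjusted p = 0.00305). The groups did not overlap for any of these 3 genes, nor for any of the 28 called probe sets of the segment. The same held for every call of the other regions, so it adds no support to a call. Among all 16665 tested probe sets, 10.2% had every F1 array below every B6 array and 14.4% every one above. In 8 of the 28 probe sets of the segment the F1 mean and in 3 the B6 mean lay under the floor, where a signal is not measured above background, so that the size of such a difference is not exact.

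Nxf3, a member of the nuclear RNA export factor family, gave 1.65, 0.90 and 1.14 in F1 against 3.26, 3.34 and 3.41 in B6 (log2 difference -2.11, SE 0.18, adjusted p = 0.00898), so that the transcript was near the floor even in B6. Further falls were of Vegfd, a lymphangiogenic growth factor (-1.40), Nexmif, a gene of neurite outgrowth (-1.18), Phf8, a histone H3 lysine 9 demethylase (-1.15), Atp7a, the copper transporter (-0.91), and Asb9, a SOCS box protein (-0.88), each as an F1 minus B6 log2 difference. Nrk, a germinal centre kinase family member, fell with both called probe sets and gave 8.84, 9.06 and 8.94 in F1 against 9.52, 9.59 and 9.50 in B6 with one of them (log2 difference -0.59, SE 0.07, adjusted p = 0.0277). Taf9b, a paralogue of a TFIID subunit, fell by 0.82, Chm, the Rab escort protein, by 0.61, and Fgd1, an exchange factor of Cdc42, by 0.75 on the log2 scale. The falls thus ranged from 0.59 to 2.58 on this scale.

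The 6 rises on the distal X chromosome were of Phex, an endopeptidase of phosphate metabolism (2.25), Pdzd11, a PDZ domain protein (1.63), Kdm5c, a histone H3 lysine 4 demethylase (1.48), Slc25a53, a mitochondrial carrier family member (1.09), Chrdl1, a BMP antagonist (1.01), and Phka1, a regulatory subunit of phosphorylase kinase (0.90), again as F1 minus B6 log2 differences. Phex gave 4.48, 5.01 and 4.97 in F1 against 2.74, 2.51 and 2.47 in B6 (SE 0.15, adjusted p = 0.00541). Kdm5c gave 5.33, 5.21 and 5.03 in F1 against 3.68, 3.53 and 3.92 in B6 with its called probe set (SE 0.12, adjusted p = 0.00886). Every F1 array was above every B6 array for both genes. The other 4 tested probe sets of Kdm5c differed by -0.10 to 0.41 and none was called.

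B6-ChrXTMSM males share this X segment with F1, and the levels on it were close in both. B6-ChrXTMSM differed from B6 in 51 of 16567 probe sets (0.308%), 13 higher (0.0785%) and 38 lower (0.229%), of which 9 higher and 25 lower were on the distal X chromosome. At an unadjusted p under 0.05 it was higher in 9.89% and lower in 10.4% of all probe sets. These values rest on the same B6 arrays as those of F1. None of 226 distal X probe sets was called between F1 and B6-ChrXTMSM, and the standard deviation of the F1 minus B6-ChrXTMSM differences there was 0.20, against 0.58 for F1 minus B6. The F1 minus B6-ChrXTMSM differences had a standard deviation of 0.14 on chromosomes 2 to 19 and 0.15 on the proximal X chromosome. Over all chromosomes, 8 of 16559 probe sets (0.0483%) were called between these groups. At an unadjusted p under 0.05, over all chromosomes, 1141 of 16559 probe sets (6.89%) were higher and 654 (3.95%) lower in F1 than in B6-ChrXTMSM. For the 20 called distal X probe sets that were also tested between F1 and B6-ChrXTMSM, the median absolute difference was 0.08 and the highest 0.42. Phex averaged 4.82 in F1, 4.74 in B6-ChrXTMSM and 2.57 in B6, and the same Gpm6b probe set averaged 3.71, 3.91 and 6.29 in the same order of groups. In MSM males these averaged 6.18 and 3.65. 26 of the 28 probe sets differed from B6 in the same direction in MSM as in F1, and the 2 exceptions were Taf9b, at 4.17 in F1, 5.27 in MSM and 4.99 in B6, and Tex13b, at 3.66 in F1, 4.57 in MSM and 4.29 in B6. MSM and F1 were both set against the same B6 arrays here, so a shared direction is not independent of the calls. The number of distal X calls was 31, 12 and 29 without F1 replicate 1, 2 and 3 and 8, 10 and 7 without B6 replicate 1, 2 and 3.

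On chromosome 1, where F1 males had 1 MSM and 1 B6 copy, 10 probe sets of 8 genes rose and 7 probe sets of 7 genes fell. The F1 mean lay under the floor in 2 of them and the B6 mean in 4, the leading Wdfy1 probe set and Pi15 included. Wdfy1, which encodes a FYVE domain adaptor of Toll-like receptor signalling, rose with all 3 of its probe sets. The one with the largest rise gave 4.95, 5.02 and 5.05 in F1 against 3.30, 3.04 and 3.28 in B6 (log2 difference 1.80, SE 0.08, adjusted p = 0.00107), and the other 2 rose by 1.56 and 1.05. Bmpr2, the type II receptor of bone morphogenetic proteins, gave 6.36, 6.22 and 5.94 in F1 against 4.44, 4.22 and 4.69 in B6 with its called probe set (log2 difference 1.72, SE 0.15, adjusted p = 0.00898). The second Bmpr2 probe set averaged 8.74 in F1 and 8.57 in B6 and was not called (adjusted p = 0.182). Pi15, a secreted peptidase inhibitor, gave 2.93, 3.82 and 3.35 in F1 against 1.31, 1.35 and 1.22 in B6 (log2 difference 2.07, SE 0.20, adjusted p = 0.0147). The remaining rises were of Mfsd4a, a transporter (1.09), Pam, the peptide amidating enzyme (0.78), Rgl1, an exchange factor of Ral (0.65), Obsl1, a cytoskeletal adaptor (0.65), and Ogfrl1 (0.61).

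The falls on chromosome 1 were of Klf7, a Krüppel-like transcription factor (-1.08), Tcf24, a basic helix-loop-helix gene (-1.08), Fam126b (-0.99), Prrx1, a mesenchymal homeobox gene (-0.95), Nbeal1 (-0.86), D1Pas1, a DEAD box helicase gene of germ cells (-0.81), and Stk17b, a kinase of the death-associated protein kinase family (-0.66). Tcf24 gave 3.53, 3.66 and 3.74 in F1 against 4.68, 4.67 and 4.81 in B6 (SE 0.08, adjusted p = 0.00639). Nbeal1 gave 3.46, 3.64 and 3.45 in F1 against 4.45, 4.34 and 4.35 in B6 with its called probe set (SE 0.07, adjusted p = 0.00898). No F1 array reached the range of the B6 arrays for either. The 2 other tested probe sets of Nbeal1 differed by 0.17 and -0.48, and the 3 others of Klf7 by -0.16 to -0.26, none of them called. Prrx1 and D1Pas1 were also below B6 in strains without MSM sequence on chromosome 1. Prrx1 averaged 3.08 in F1, 3.26 in B6-ChrXTMSM and 4.04 in B6. D1Pas1 averaged 2.54 in F1, 2.98 in B6-ChrXTMSM, 2.26 in B6-ChrXMSM and 3.35 in B6. Neither was called between B6-ChrXTMSM and B6.

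MSM males, with 2 MSM copies of chromosome 1, lay beyond F1 for most of these transcripts. 16 of the 17 called probe sets differed from B6 in the same direction in MSM as in F1, and for 14 of them the F1 mean lay between the B6 and MSM means. MSM lay under the floor of 3.32 for some of them, such as Tcf24 and Nbeal1, and B6 for others, such as Pi15, so no ratio of the differences is given. The leading Wdfy1 probe set averaged 5.01 ± 0.05 in F1, 6.04 in MSM, 3.36 in B6-ChrXTMSM and 3.21 ± 0.15 in B6 (SD, n = 3 each). Tcf24 averaged 3.64 in F1, 1.58 in MSM, 4.80 in B6-ChrXTMSM and 4.72 in B6, and Nbeal1 3.52, 0.94, 4.12 and 4.38 in the same order of groups. The exception to the shared direction was D1Pas1, at 2.54 in F1, 3.76 in MSM and 3.35 in B6. Because the B6 arrays enter both differences, the direction was also read from MSM minus B6-ChrXTMSM, which uses none of the 6 arrays: it had the sign of F1 minus B6 for 15 of 16 tested probe sets of chromosome 1 and 8 of 42 of chromosomes 2 to 19. Both of those strains carry the MSM distal X chromosome, so this difference says nothing of its direction there. The study's list of polymorphic probe sets is for chromosomes 1 and X. On chromosomes 2 to 19, MSM signals were therefore not screened for sequence differences in the probes, and the 2 regions are not compared on equal terms.

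Between F1 and B6-ChrXTMSM, which differ by design in chromosome 1, 8 of 16559 probe sets (0.0483%) were called, 6 higher (0.0362%) and 2 lower (0.0121%) in F1. 5 of them were on chromosome 1: 2 probe sets of Wdfy1 (1.65 and 1.16), Bmpr2 (1.99), Mfsd4a (1.31) and Tcf24 (-1.16), as F1 minus B6-ChrXTMSM log2 differences with adjusted p between 0.000335 and 0.0282. The other 3 were Rai14, Rsrp1 and Nfe2l2. This count was 1 without F1 replicate 2 and 24 without F1 replicate 1. The number of chromosome 1 calls against B6 was 25, 4 and 18 without F1 replicate 1, 2 and 3 and 3, 3 and 8 without B6 replicate 1, 2 and 3.

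**Figure D3:**
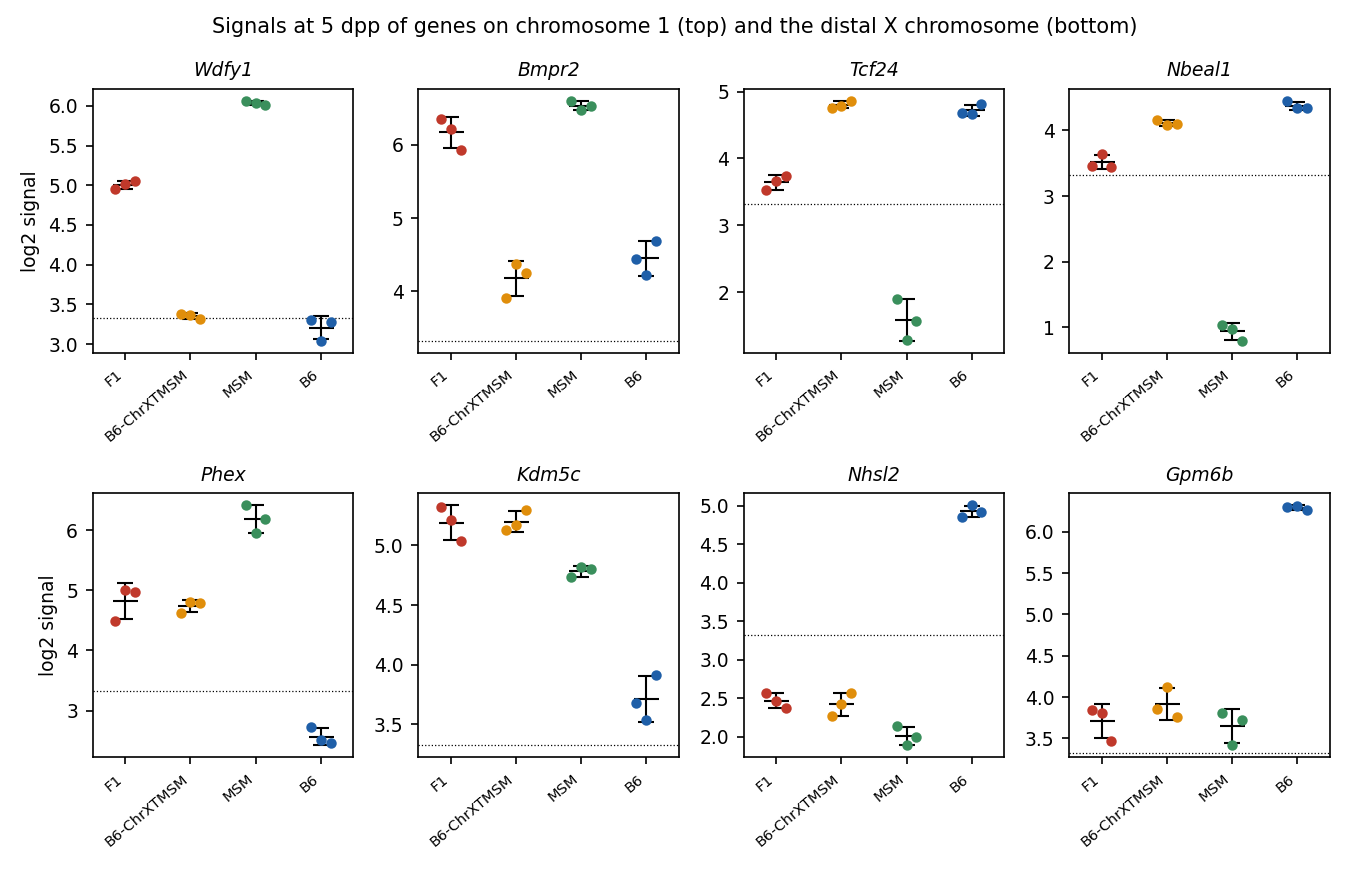
Log2 signals at 5 dpp of 4 genes of chromosome 1 (top) and 4 genes of the distal X chromosome (bottom) in F1, B6-ChrXTMSM, MSM and B6 testes, with 1 point per array, the mean and the standard deviation (n = 3 each), and the floor of 3.32 as a dotted line where it lies in range. On chromosome 1 F1 stands apart from B6-ChrXTMSM and B6, and on the distal X chromosome F1 and B6-ChrXTMSM stand together and apart from B6.

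Both groups of genes were measured again in other males at 7 dpp. Of the chromosome 1 probe sets called at 5 dpp, 15 were tested between F1 and B6 at 7 dpp, all 15 differed in the same direction and 12 were called, where 287 of 16668 probe sets (1.72%) were called over all chromosomes, 61 higher (0.366%) and 226 lower (1.36%). Of the distal X probe sets, 27 were tested, all 27 differed in the same direction and 19 were called. The leading Wdfy1 probe set differed by 1.96 at 7 dpp (SE 0.20, adjusted p = 0.000167), Nhsl2 by -2.57 (SE 0.14, adjusted p = 8.92e-07) and Phex by 2.58 (SE 0.13, adjusted p = 6.21e-07), each as F1 minus B6 on the log2 scale. F1 replicates 1 to 4 gave 4.79 to 5.03 for this Wdfy1 probe set and 2.03 to 2.40 for Nhsl2. Replicates 5 to 8 gave 5.47 to 5.66 and 1.69 to 1.97. For Phex these ranges overlapped, at 4.05 to 4.34 and 3.96 to 4.52. This division of the 8 males was not tested.

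Of the 45 calls outside the MSM segments, 9 probe sets of 9 genes rose and 36 probe sets of 30 genes fell. The highest rise was of Rai14 on chromosome 15, which encodes an ankyrin repeat protein of the actin cytoskeleton, studied in rat Sertoli cells. Its called probe set gave 5.94, 5.94 and 5.68 in F1 against 3.93, 3.87 and 4.14 in B6 (log2 difference 1.87, SE 0.10, adjusted p = 0.00248). It averaged 4.05 in B6-ChrXTMSM and 1.85 in MSM, so that F1 was above every one of these groups, and the F1 minus B6 difference was 1.66 at 7 dpp (SE 0.09, adjusted p = 6.21e-07). The 3 other probe sets of Rai14 differed by -0.04 to 0.17 at 5 dpp and were not called. At 7 dpp a probe set among these was called in the opposite direction, with an F1 minus B6 difference of -0.84 (adjusted p = 0.023).

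The uncharacterised gene 4833420G17Rik on chromosome 13 fell with 3 of its 4 tested probe sets, by 0.99, 0.97 and 0.75 on the log2 scale, and the fourth differed by -1.16 without passing the test (adjusted p = 0.126). The one with the largest called fall gave 4.36, 4.52 and 4.46 in F1 against 5.51, 5.47 and 5.34 in B6 (SE 0.07, adjusted p = 0.00655). It was as low in B6-ChrXTMSM (4.37) and in XS39-tel (4.33), lower still in MSM (3.19), and at the B6 level in B6-ChrXMSM (5.33). At 7 dpp the F1 minus B6 difference was -0.94 (SE 0.09, adjusted p = 0.000102).

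The other rises were of Nudt21, a cleavage factor of mRNA 3' ends (1.17), Tmtc3 (1.13), Chst11, a chondroitin sulphotransferase (0.77), Sh3bgr (0.73), Senp6, a SUMO protease (0.69), Rsrp1 (0.68), Serpina3a (0.66) and Atp8a1, a phospholipid flippase (0.60). For Nudt21, Tmtc3, Senp6, Rsrp1 and Atp8a1 other probe sets of the same gene were not called, and Nudt21 differed by -0.12 and 0.10 with its other 2. The study places the called Nudt21 probe set on chromosome 3, whereas the annotation used here assigns it to Nudt21 on chromosome 8. The gene that this probe set measures is therefore not certain. The same holds for the called Kantr probe set, counted here on the distal X chromosome, which the study places on chromosome 2. Of 2154 probe sets with a place in both sources, 2034 were on the same chromosome in both. Across all 79 genes called at 5 dpp, 45 had several tested probe sets. All of these were called for 5 genes and more than 1 for 8, and no gene was called in both directions at that age. Sequence differences between MSM and B6 that remain in single probes can lower the signal of one probe set and not of another. In F1 this applies to the MSM segments only. In MSM males it applies to every chromosome, the MSM levels of Rai14 and 4833420G17Rik included. The part of such differences in these values was not tested.

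In bulk testis RNA, fewer cells of a type and less RNA per cell cannot be told apart, which applies to all germ cell genes below. 11 of the 30 genes that fell there stood on one of 5 lists of germ cell genes, against none of the 9 genes that rose, and 58 genes of the pooled lists were tested in all. Of all probe sets outside the segments, 0.23% were called lower. Among them were Ddx4 (-0.63), the conserved germ cell helicase, Dazl (-0.82), a germ cell translation regulator, Rnf17 (-0.86) and Stk31 (-0.61), both Tudor domain proteins, Smc1b (-0.63), the cohesin subunit of meiosis, Sall4 (-0.70), a transcription factor of undifferentiated spermatogonia, and Tktl1 (-0.95), a transketolase-like gene of the proximal X chromosome, all as F1 minus B6 log2 differences. Outside the lists, the germ cell genes Rbm46, an RNA-binding protein required for meiosis, Ddx25, a testicular helicase, Tcfl5, a basic helix-loop-helix factor of spermatocytes, and Slc25a31, the germ cell ADP/ATP carrier, fell by 1.08, 0.62, 0.64 and 0.76. Further falls without a germ cell role that is certain were of Afp, Tfrc, Mt2, Ero1a and Dck, between 0.63 and 0.96 on the log2 scale.

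Ddx4 gave 6.34, 6.32 and 6.52 in F1 against 7.04, 6.96 and 7.09 in B6, a 1.55-fold fall (SE 0.07, adjusted p = 0.0239). Dazl gave 7.61, 7.32 and 7.37 in F1 against 8.24, 8.18 and 8.35 in B6 with its called probe set (SE 0.09, adjusted p = 0.0217), and its second probe set differed by -0.59 (adjusted p = 0.0796). Rbm46 gave 4.36, 4.60 and 4.42 in F1 against 5.47, 5.40 and 5.75 in B6 with one of its called probe sets (SE 0.11, adjusted p = 0.017). For each of these genes the highest F1 array was below the lowest B6 array. Over all probe sets tested, the F1 arrays all lay below the B6 arrays for 10.2% and all above them for 14.4%.

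The promoters of germ cell genes are known for E-box and E2F6 elements that keep them silent in somatic cells, so the 250 bases before the start sites of the fallen germ cell genes were searched on both strands for CACGTG, an E-box that reads the same on both strands, and TCCCGC, the core of an E2F element, whose outermost base can be shared with it. RefSeq (GRCm38.p6) gave 9 promoters for 8 of the genes. Rnf17 and Sall4 had none there, and Zbtb16 and the genes outside the lists were not searched. CACGTG was in 3 of the 9 promoters, those of 2 genes, against 6.02% of all 32851 promoters. TCCCGC was in 2 of the 9, against 16.9%. The 2 windows of Stk31 overlap and hold the same CACGTG, so 1 of them is given with the windows of the other genes with a match 5′ to 3′ with the matches in capitals, Ddx4 at chr13:112652311-112652560 on the minus strand, Smc1b at chr15:85131958-85132207 on the minus strand and Stk31 at chr6:49395289-49395538 on the plus strand. A match is a description of these letters and not a measured binding site.
Ddx4: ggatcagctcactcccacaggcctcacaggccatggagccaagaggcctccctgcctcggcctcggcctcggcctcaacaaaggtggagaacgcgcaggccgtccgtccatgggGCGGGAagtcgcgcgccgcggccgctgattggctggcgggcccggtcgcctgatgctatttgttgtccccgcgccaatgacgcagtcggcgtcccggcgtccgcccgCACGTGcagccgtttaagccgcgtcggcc
Smc1b: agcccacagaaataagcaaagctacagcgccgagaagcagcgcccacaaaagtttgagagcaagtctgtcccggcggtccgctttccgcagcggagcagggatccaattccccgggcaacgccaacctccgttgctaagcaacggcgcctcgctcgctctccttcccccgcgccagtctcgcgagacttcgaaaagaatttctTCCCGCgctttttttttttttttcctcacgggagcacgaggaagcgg
Stk31: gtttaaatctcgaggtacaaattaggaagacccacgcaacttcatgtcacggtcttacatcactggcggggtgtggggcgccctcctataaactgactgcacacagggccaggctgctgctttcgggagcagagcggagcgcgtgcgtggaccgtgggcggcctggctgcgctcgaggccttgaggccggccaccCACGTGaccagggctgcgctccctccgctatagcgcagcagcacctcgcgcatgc

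Of 14 tested genes of meiotic prophase, 2 fell (Smc1b and Syce1) and none rose, the median difference was -0.61 against 0.02 over all probe sets, and 12 had an unadjusted p under 0.05 in the lower direction, where 7.12% of all probe sets did and 9.4% were as much higher. Of 19 tested genes of germ cell identity and the piRNA pathway, which silences transposons, 6 fell (Rnf17, Tex101, Dazl, Ddx4, Stk31 and Rpl39l), none rose, all 19 differences were below 0 and the median was -0.61. Of the 6 tested X-linked spermatogonial genes, Tktl1 fell and all 6 had F1 arrays entirely below the B6 arrays, with a median of -0.65. The genes that mark differentiating spermatogonia had a median of -0.42 over 9 genes with none called, and those of undifferentiated spermatogonia a median of -0.07 over 13 genes with Sall4 called. The median of the undifferentiated list was 0.12 without F1 replicate 1 and -0.30 without F1 replicate 3, and Sall4 was not called without F1 replicate 2 or any one B6 array. Each gene was represented by 1 probe set here, and Zbtb16 of that list was called only with another of its probe sets (-0.66).

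Stra8, the gene that opens meiosis, had a large but variable difference. It gave 4.61, 3.39 and 3.86 in F1 against 5.62, 5.58 and 5.64 in B6 (log2 difference -1.66, SE 0.28, adjusted p = 0.0618) and was not called. Crabp1, a retinoic acid binding protein of spermatogonia, gave 3.17, 2.02 and 2.62 in F1 against 3.93, 3.99 and 4.17 in B6 (log2 difference -1.42, SE 0.27, adjusted p = 0.0796). Nxf2, an X-linked RNA export factor, gave 5.24, 4.27 and 4.69 in F1 against 5.66, 5.79 and 5.84 in B6 (log2 difference -1.03, SE 0.23, adjusted p = 0.117). F1 replicate 2 was the lowest array for all 3 genes, and no F1 array reached the B6 range for any of them. Sycp3 (-0.91), Mael (-0.70), Taf7l (-0.67), Tex11 (-0.63), Tex15 (-0.58), Sycp2 (-0.56) and Sycp1 (-0.46), further genes of meiosis and the germ line that the study names, had adjusted p between 0.0385 and 0.277 and were not called (Tex15 passed the adjusted p but not the fold change), and the recombinase gene Dmc1 differed by 0.07. The 16 tested genes that the study names were chosen on these samples, so that their median of -0.69 is not independent evidence of their direction. Some of them, such as Stra8, Nxf2, Smc1b and Mael, also stand on the germ cell lists above. Stra8 is on both the meiotic prophase and the differentiating spermatogonia list. The medians of those lists are therefore not independent of that choice or of each other.

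**Figure D4:**
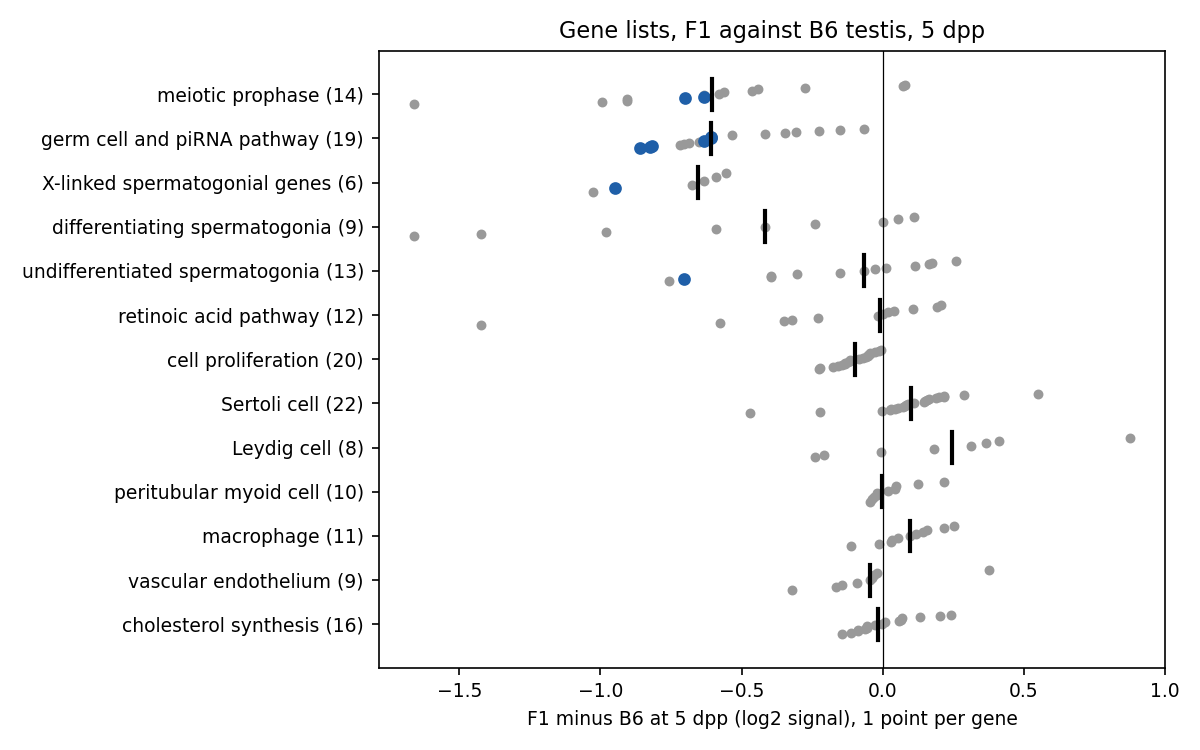
F1 minus B6 difference at 5 dpp (log2 signal) of each tested gene, by list, with the number of tested genes in brackets, called genes in blue and a black bar at the median. The 5 germ cell lists at the top have medians of -0.61, -0.61, -0.65, -0.42 and -0.07, and the Sertoli, Leydig, peritubular myoid, macrophage and endothelium lists have medians between -0.05 and 0.25.

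Averaged over the list, the 14 meiotic prophase genes stood at 4.44, 4.15 and 4.49 in F1 against 4.93, 4.93 and 5.07 in B6 on the log2 scale, and the 19 germ cell and piRNA genes at 4.91, 4.68 and 4.92 in F1 against 5.31, 5.36 and 5.48 in B6. The groups did not overlap for either list. B6-ChrXTMSM arrays, at 4.54 to 4.94 and 4.99 to 5.32, lay above every F1 array and overlapped the B6 range. The medians of the list differences were -0.14 and -0.14 for B6-ChrXTMSM minus B6 and -0.42 and -0.46 for F1 minus B6-ChrXTMSM, with no gene of either list called in these comparisons, which share the F1 or the B6 arrays. MSM arrays were at 5.19 to 5.51 and 5.88 to 6.23, above every B6 array. Ddx4 averaged 6.40 in F1, 5.62 in B6-ChrXMSM, 6.28 in XS39-tel and 7.03 in B6, Dazl 7.44, 6.72, 7.42 and 8.26, and Smc1b 4.22, 3.28, 3.90 and 4.86, in the same order of groups. These strains were not tested against B6 here.

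The calls of the meiotic prophase and germ cell and piRNA lists depended on single arrays and on the fit, while the medians of both stayed below 0 in each of these fits. The 2 calls of meiotic prophase were 0 without F1 replicate 2 or without any one B6 array and 4 without F1 replicate 1 or 3, with medians from -0.72 to -0.46. The 6 calls of the germ cell and piRNA list were 0 without F1 replicate 2 or any one B6 array, and 0 in the fit of all 6 groups of 5 dpp, with medians from -0.69 to -0.51. With array weights the calls were 9 for meiotic prophase and 13 for the germ cell and piRNA list. The number of calls outside the segments was 73, 6 and 60 without F1 replicate 1, 2 and 3 and 4, 5 and 14 without B6 replicate 1, 2 and 3.

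At 7 dpp Ddx4 averaged 7.70 ± 0.44 in F1 (n = 8) and 7.77 ± 0.03 in B6 (SD, n = 3), a log2 difference of -0.07 (adjusted p = 0.871). Stra8 averaged 6.54 ± 0.52 in F1 and 7.33 ± 0.16 in B6, a difference of -0.78 (adjusted p = 0.0944), and Nxf2 differed by -0.22 (adjusted p = 0.468). The median difference at 7 dpp was -0.43 over the meiotic prophase list and -0.24 over the germ cell and piRNA list, with no member called, against 0.01 over all probe sets. The list of differentiating spermatogonia had a median of -0.48 at 7 dpp with 1 gene, Rhox13, called lower. Of the 42 probe sets called outside the segments and tested at 7 dpp, 35 differed in the same direction and 8 were called. No germ cell list member passed the test of the difference between ages, in which 2 of 17101 probe sets (0.0117%) were called, Nfe2l2 and A330076H08Rik, so that a smaller difference at 7 dpp was not shown. At an unadjusted p under 0.05 this test gave 3.14% higher and 3.43% lower.

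**Figure D5:**
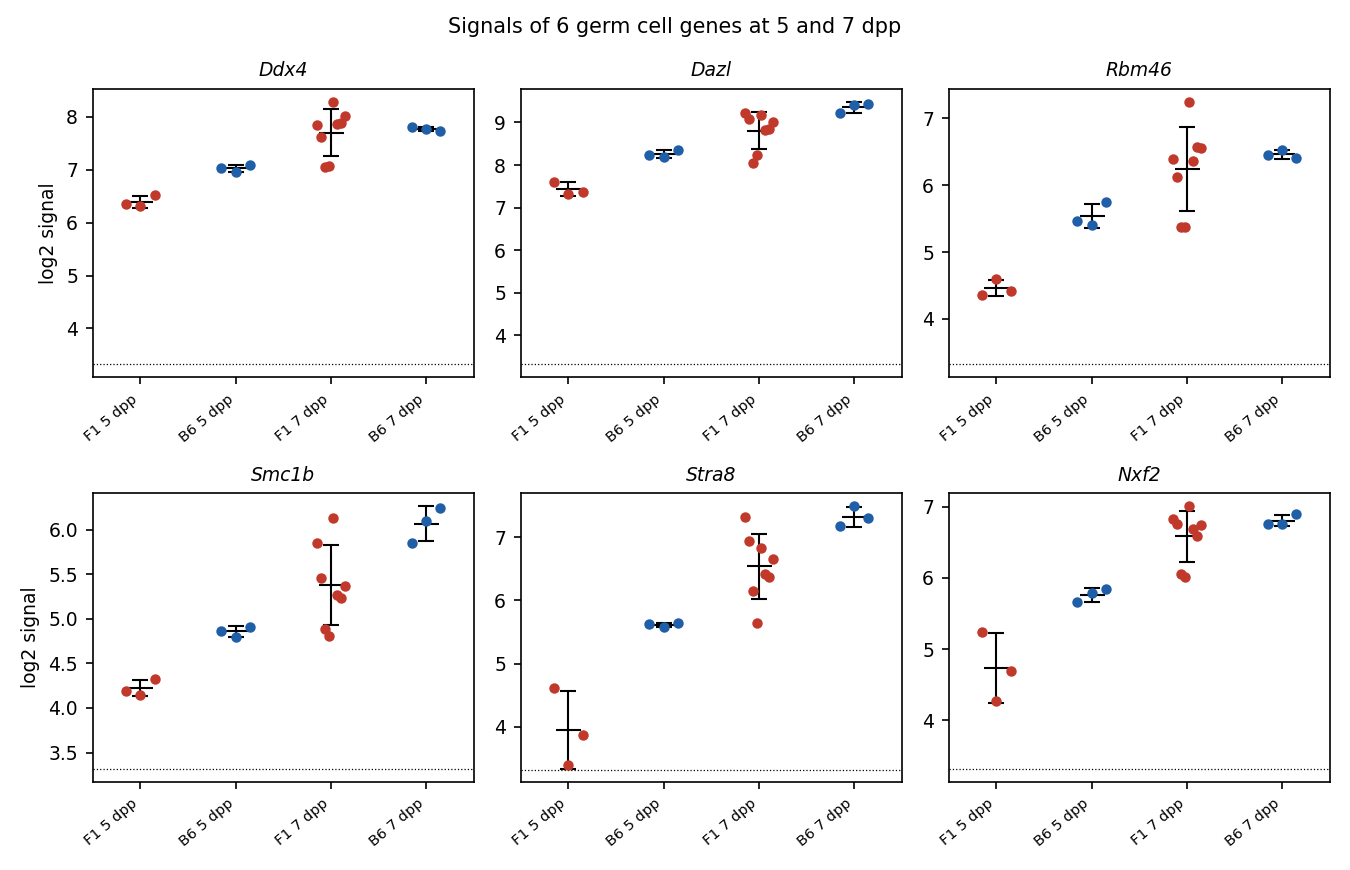
Log2 signals of 6 germ cell genes in F1 and B6 testes at 5 dpp (n = 3 each) and at 7 dpp (n = 8 and n = 3), with 1 point per array, the mean and the standard deviation, and the floor of 3.32 as a dotted line. At 5 dpp the F1 points lie below all B6 points for each gene, and at 7 dpp the F1 arrays spread over a wider range and overlap the B6 arrays for each gene.

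At 5 dpp no list of somatic genes had a called member. At 7 dpp 2 of 22 tested Sertoli cell genes were called higher in F1, where 0.366% of all probe sets were, and the list median was 0.12. At 5 dpp the 22 tested Sertoli cell genes had a median difference of 0.10. They averaged 7.66, 7.51 and 7.49 in F1 against 7.43, 7.50 and 7.44 in B6, which are overlapping ranges. Among them, Inha, the inhibin alpha subunit, differed by 0.29 (adjusted p = 0.119) and Gdnf, the growth factor of spermatogonial stem cells, by 0.20 (adjusted p = 0.214). The 8 Leydig cell genes had a median of 0.25, led by Cyp17a1, a steroidogenic enzyme, at 9.03, 8.14 and 7.74 in F1 against 7.26, 7.53 and 7.49 in B6 (log2 difference 0.88, SE 0.31, adjusted p = 0.237). The lists of retinoic acid metabolism, peritubular myoid cells, macrophages, endothelium and cholesterol synthesis had medians between -0.05 and 0.10. Egr1, an immediate early gene, gave 7.92, 8.26 and 8.14 in F1 against 8.68, 8.72 and 8.66 in B6 (log2 difference -0.58, adjusted p = 0.0561) and was not called.

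The 20 proliferation genes were all below 0 with a median of -0.10, and 3 of them, Mcm2, Mcm5 and Mcm3, subunits of the replicative helicase, had an unadjusted p under 0.05. F1 replicate 1 carried much of this, with a list average of 7.19 against 7.48 and 7.44 in the other F1 arrays and 7.46, 7.48 and 7.46 in B6.

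Genes of adipose tissue, which lies beside the testis, differed between the B6 arrays. Their list average was 3.92, 2.80 and 4.04 in F1 against 6.91, 6.26 and 3.69 in B6, so that B6 replicates 1 and 2 stood apart and B6 replicate 3 lay within the F1 range. Adipoq, the fat cell hormone adiponectin, gave 2.01, 0.64 and 2.09 in F1 against 7.13, 6.27 and 1.75 in B6, and none of the 7 tested genes was called. B6 replicate 3, with the lowest adipose level of the B6 arrays, had the highest averages of B6 for both lists (5.07 and 5.48). With B6 replicate 3 as the only B6 array, the list medians were -0.72 for meiotic prophase and -0.69 for germ cell and piRNA genes, and no probe set was called. No gene of the erythroid and skeletal muscle lists and 1 of the epididymis list, Cdh16, passed the signal filter.

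The probe sets that the study lists as polymorphic between MSM and B6, a list for chromosomes 1 and X, were kept out of all tests above. When they were kept in, 14 of 319 (4.39%) were called on chromosome 1, 5 higher and 9 lower in F1, and 7 of 62 (11.3%) on the distal X chromosome, all 7 lower. The median F1 minus B6 difference of the polymorphic probe sets was -0.07 on chromosome 1 and -0.10 on the distal X chromosome, against -0.025 and -0.02 for the other probe sets there, all on the log2 scale. Calls on chromosome 1 then numbered 32, with 15 higher and 17 lower, in place of 10 higher and 7 lower.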

How the data were processed

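RNA of whole testes, 1 male per array, had been hybridised to Affymetrix mouse expression arrays. The deposited values are log2 signals that the authors made with RMA in GeneSpring GX, whose version is not given in the sources used here. No scanner files were used. Of 45101 probe sets, 34728 had 1 gene on an autosome or the X chromosome by the platform annotation. The X chromosome was split by gene order at the start of the MSM segment, and 6 probe sets at the boundary were left out, as were all that the study lists as polymorphic (1366 of the 45101).

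Probe sets with a mean signal above 10 in at least 1 of the groups compared were tested with limma 3.58.1 (lmFit and eBayes, R 4.3.3), two-sided, with Benjamini-Hochberg adjustment over all probe sets tested. Calls required both an adjusted p below 0.05 and a 1.5-fold change or more. The procedure was tested on simulated data. P-values measure the spread between the 3 males of a group. Precision is limited by how few arrays there are. Named are the genes the study names, the 8 largest rises and falls per region among calls, up to 4 members per list with the largest change, and others chosen after their values were seen. Members and lists were chosen with earlier results of these data known. Alternatives varied the filter, scaling, variance model, array weights, polymorphic probe sets, groups fitted, replicate block, thresholds and single arrays.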

Additional observations from a re-analysis of the deposited data

Results flagged for a closer look

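The F1 arrays of 7 dpp were checked for an outlying array in 62 cases, each a named probe set or a list average. In 3 of these 1 array was far from the rest, where chance alone sets an array apart in about 1 in 20. Pam had its highest 7 dpp F1 array at a log2 signal of 7.32 (replicate 4), with the others at 6.68 to 6.98. Nxf3 had its highest 7 dpp F1 array at 3.55 (replicate 5), with the others at 1.96 to 2.53. The called Rai14 probe set had its lowest 7 dpp F1 array at 5.36, also replicate 5, with the others at 5.61 to 5.77.

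The F1 minus B6 difference changed with age for 2 probe sets in limma's test of the difference. For one probe set of Nfe2l2, a regulator of the oxidative stress response, it was 1.07 higher at 7 than at 5 dpp on the log2 scale (adjusted p = 0.0282), with -0.78 at 5 dpp and 0.29 at 7 dpp. Another Nfe2l2 probe set differed by 0.06 at 5 dpp. For A330076H08Rik it was 1.92 higher (adjusted p = 0.0165). This transcript gave 4.20, 4.39 and 3.91 in F1 against 4.61, 4.17 and 4.41 in B6 at 5 dpp, and 3.46 to 4.33 with a median of 4.03 in F1 against 2.31 ± 0.22 (SD, n = 3) in B6 at 7 dpp. The number of probe sets called in this test was 0 to 9 when 1 array was left out.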

How the results depend on the processing

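Of the 90 calls, each that was still tested kept its direction in every alternative, but their number moved. Calls in all, on chromosome 1, on the distal X chromosome and elsewhere were 90, 17, 28 and 45 as reported. They were 30, 5, 7 and 18 with a signal above 50, 221, 39, 44 and 138 with array weights, and 25, 8, 13 and 4 at a fold change of 2. The adjusted p alone gave 139, 26 and 84 in all, on chromosome 1 and elsewhere, no signal filter gave 22 elsewhere, and keeping polymorphic probe sets gave 32 on chromosome 1. Leaving out 1 array gave 15 to 129 in all, 3 to 25 on chromosome 1, 7 to 31 on the distal X chromosome and 4 to 73 elsewhere. Leaving out B6 replicates 1 and 2, chosen after seeing the data, gave 0 in all 4, with the lone B6 array assumed to vary like F1.

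At 7 dpp the 287 calls became 58 with a signal above 50, 672 with array weights, 735 by adjusted p alone, 107 at a fold change of 2 and 55 to 77 without 1 B6 array. The 8 calls of F1 against B6-ChrXTMSM became 14 with an intensity trend, 36 with array weights, 19 with polymorphic probe sets, 17 with all 6 groups fitted and 1 to 24 without 1 array. The 2 calls of the age test became 0 with a signal above 50, 1 with a trend, 252 with array weights and 0 to 9 without 1 array.

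Replicate numbers did not pair the arrays: deviations of same-numbered F1 and B6 arrays correlated at 0.053, -0.176 and -0.352, and F1 replicate 3 correlated best with B6 replicate 2 (0.437). With the replicate block there were 5 calls in all, 1 on chromosome 1, 4 on the distal X chromosome and 0 elsewhere, 44 at 7 dpp and 2 against B6-ChrXTMSM, and 0 calls on the meiotic prophase and germ cell and piRNA lists.

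Some F1 minus B6 log2 differences of uncalled genes changed sign. Without B6 replicates 1 and 2, Fabp4 was 0.46, Krt18 0.21, Cdh1 0.30, Emcn 0.21, Esam 0.038, Cdh16 0.47 and Dmc1 -0.017. Leaving out 1 array gave -0.87 to 0.034 for Cdh16 (the highest without F1 replicate 2), -0.032 to 0.13 for Dmc1 (the lowest without F1 replicate 3) and -0.15 to 0.23 for Actg2 (below 0 without F1 replicate 3 or B6 replicate 3). With array weights Mvd was 4e-04 and Actg2 -0.0061. The cause was not tested for any of these changes.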

Other observations

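4 genes that neighbour Rai14 on chromosome 15 were looked at after the values of Rai14 were seen. Rad1 differed by 0.15 (adjusted p = 0.609) and Adamts12 by 0.0076 (adjusted p = 0.982) as F1 minus B6 at 5 dpp. Amacr, a racemase of branched-chain fatty acid oxidation, gave log2 signals of 5.86, 6.01 and 6.01 in F1 against 5.35, 5.42 and 5.43 in B6 at 5 dpp, a difference of 0.56 (SE 0.07, adjusted p = 0.0232), which is below 1.5-fold. At 7 dpp its difference was 0.81 (adjusted p = 0.000126). C1qtnf3, a secreted C1q domain protein, gave 7.26, 7.46 and 7.39 in F1 against 6.76, 6.99 and 6.95 in B6 at 5 dpp, a difference of 0.47 (adjusted p = 0.0764), and 1.24 at 7 dpp (adjusted p = 0.0113). Against B6-ChrXTMSM at 5 dpp, Amacr differed by 0.56 (adjusted p = 0.0632) and C1qtnf3 by 0.36 (adjusted p = 0.194).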
